A study of Mus musculus with 2 samples.

Results

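The proteasome genes are described here from maps of open chromatin in mouse calf muscle. Members were the protein-coding genes of GENCODE M21 whose symbol begins with Psma, Psmb, Psmc, Psmd, Psme, Psmf or Psmg and a digit, which gave 50 of 21853 protein-coding genes on chromosomes 1 to 19, X and Y. The rule uses symbols and no measured value, although it was set with earlier results of these data known. By known role they comprised 7 alpha ring subunits, 7 constitutive beta ring subunits, 6 ATPases and 11 other subunits of the regulatory particle, 7 assembly chaperones, and 3 further activators or inhibitors. The remaining 9 were 3 immunoproteasome subunits, 3 genes of the interferon-induced activator, 2 tissue-specific subunits, and Psmc3ip, a meiotic recombination factor that carries the prefix without being a subunit.

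DNase-seq marks accessible DNA by sequencing where DNase I cuts chromatin in isolated nuclei. It was performed on gastrocnemius of male B6CASTF1/J mice, a hybrid with C57BL/6 and CAST alleles, at 10 days of age, in 1 group of 2 libraries numbered as biological replicates 1 and 2. The label of each library names 3 males and the same donor record, and whether animals were pooled is not stated, so the spread between the libraries may be in part technical. Muscle tissue holds fibres together with vessel, connective tissue, nerve and immune cells, and accessibility in a share of the cells cannot be told apart from weaker accessibility in every cell.

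The proteasome degrades ubiquitin-tagged proteins. Its barrel-shaped core stacks rings of alpha subunits, which gate the entrance, around rings of beta subunits, of which Psmb5, Psmb6 and Psmb7 carry the catalytic sites. The regulatory particle caps the barrel, where its non-ATPase subunits bind and strip ubiquitin and its ring of ATPases unfolds the substrate. In immune cells and under interferon, Psmb8, Psmb9 and Psmb10 replace the constitutive catalytic subunits, and the activator of Psme1 and Psme2 joins the core. In muscle the proteasome removes myofibrillar proteins during growth and atrophy, and its subunit genes can be induced together by the factors NFE2L1 and NFE2L2 through antioxidant response elements.

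The libraries held 123255 and 150088 peaks and 310961 and 373154 footprints, where a footprint is a short run of bases in open chromatin that DNase I cuts less than its surroundings. A promoter was called open in a library when any peak reached to within 500 bp of a start of one of its coding transcripts, and its value is that of the highest such peak. The value is a signal read here as depth-scaled, since its values are whole multiples of 1 step, which was taken as 1 sequencing tag. The median peak of the genome had 0.729 in replicate 1 and 0.716 in replicate 2. The muscle fibre markers were open in both libraries in 10 of 10 genes, where 66.0% of all coding genes were. In the stricter of the deposited peak sets 8 were open in both. Their mean of both libraries had a median of 3.89, beside 5.59 over all promoters open in both. The macrophage markers were open in both in 2 of 6, at no more than 0.598, and the lymphocyte markers in 0 of 6. Replicate 2 alone had 4 macrophage markers and 1 lymphocyte marker open. Pairs of values below name replicate 1 first.

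The promoters that the later results on motifs turn on are shown with GRCm38.p6 coordinates, each reading 5′ to 3′ along the gene's strand from RefSeq's genome. Each stretch lies upstream of the gene's annotated start and spans the footprints over 1 match with about 30 bases on each side, cut at the start of the gene. In Psmb6 the footprints run past that cut. Capitals mark the match. In the first group the match is the core of the antioxidant response element, TGACNNNGC, and it was footprinted in both libraries. Psmd9 encodes an assembly chaperone (chr5:123228126-123228189, plus strand), Psmb6 the caspase-like catalytic subunit (chr11:70525318-70525366, plus strand) and Psmb5 the chymotrypsin-like catalytic subunit (chr14:54618023-54618073, minus strand).
Psmd9: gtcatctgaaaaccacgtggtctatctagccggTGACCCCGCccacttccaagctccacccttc
Psmb6: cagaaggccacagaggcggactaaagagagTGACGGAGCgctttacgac
Psmb5: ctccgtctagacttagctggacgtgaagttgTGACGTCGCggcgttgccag
In the second group the matches are those of other factors. Psmg1, a chaperone of alpha ring assembly (chr16:95990993-95991066, minus strand), was the highest of the 42 members in RefSeq's promoter table with a footprinted ETS match, CCGGAAG. Psmc4, an ATPase (chr7:28050148-28050231, minus strand), had the highest mean of both libraries among them with a footprinted SP/KLF match, GGGGCGG, with Psmb3 higher in replicate 2. Psmb8, an immunoproteasome subunit (chr17:34197625-34197720, plus strand), held the cyclic AMP response element TGACGTCA.
Psmg1: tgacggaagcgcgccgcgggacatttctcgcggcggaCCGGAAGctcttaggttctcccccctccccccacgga
Psmc4: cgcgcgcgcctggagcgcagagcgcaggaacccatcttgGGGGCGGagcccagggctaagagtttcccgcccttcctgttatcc
Psmb8: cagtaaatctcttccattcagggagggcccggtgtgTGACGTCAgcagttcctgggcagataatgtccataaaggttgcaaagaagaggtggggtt

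Nearly every proteasome gene had an open promoter. In both libraries 46 of 50 members were open, or 92.0%, against 66.0% of all protein-coding genes. Replicate 1 alone had 47 open members, where 67.8% of all genes were open, and replicate 2 alone had 48, where 68.0% were. In the stricter of the deposited peak sets 46 members were open in both libraries, against 61.8% of all genes. All 41 genes of the constitutive groups were open in both libraries, from the alpha ring to the inhibitor Psmf1. The 4 members that were not open in both were Psmb10, Psme2b, Psma8 and Psmb11, all from the immune, interferon-induced and tissue-specific groups.

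The open members had values above the middle of the genome's open promoters. The mean of both libraries had a median of 8.32 over the 46 open members and of 5.59 over all 14419 promoters open in both, whose quartiles were 2.26 and 9.81. Of the 46, 34 lay above that median, 16 lay above the upper quartile and 0 below the lower. Within single libraries the members' median was 6.47 in replicate 1 and 10.0 in replicate 2, and that of all open promoters was 4.64 and 6.44. Among other families of housekeeping complexes, the cytosolic ribosomal protein genes had a median of 9.08 with 79 of 86 open, and the mitochondrial ribosomal protein genes one of 7.51 with 78 of 78 open. The proteasome genes therefore lay between these families in their median. No test was made of these counts, since genes are not replicates.

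**Figure D1:**
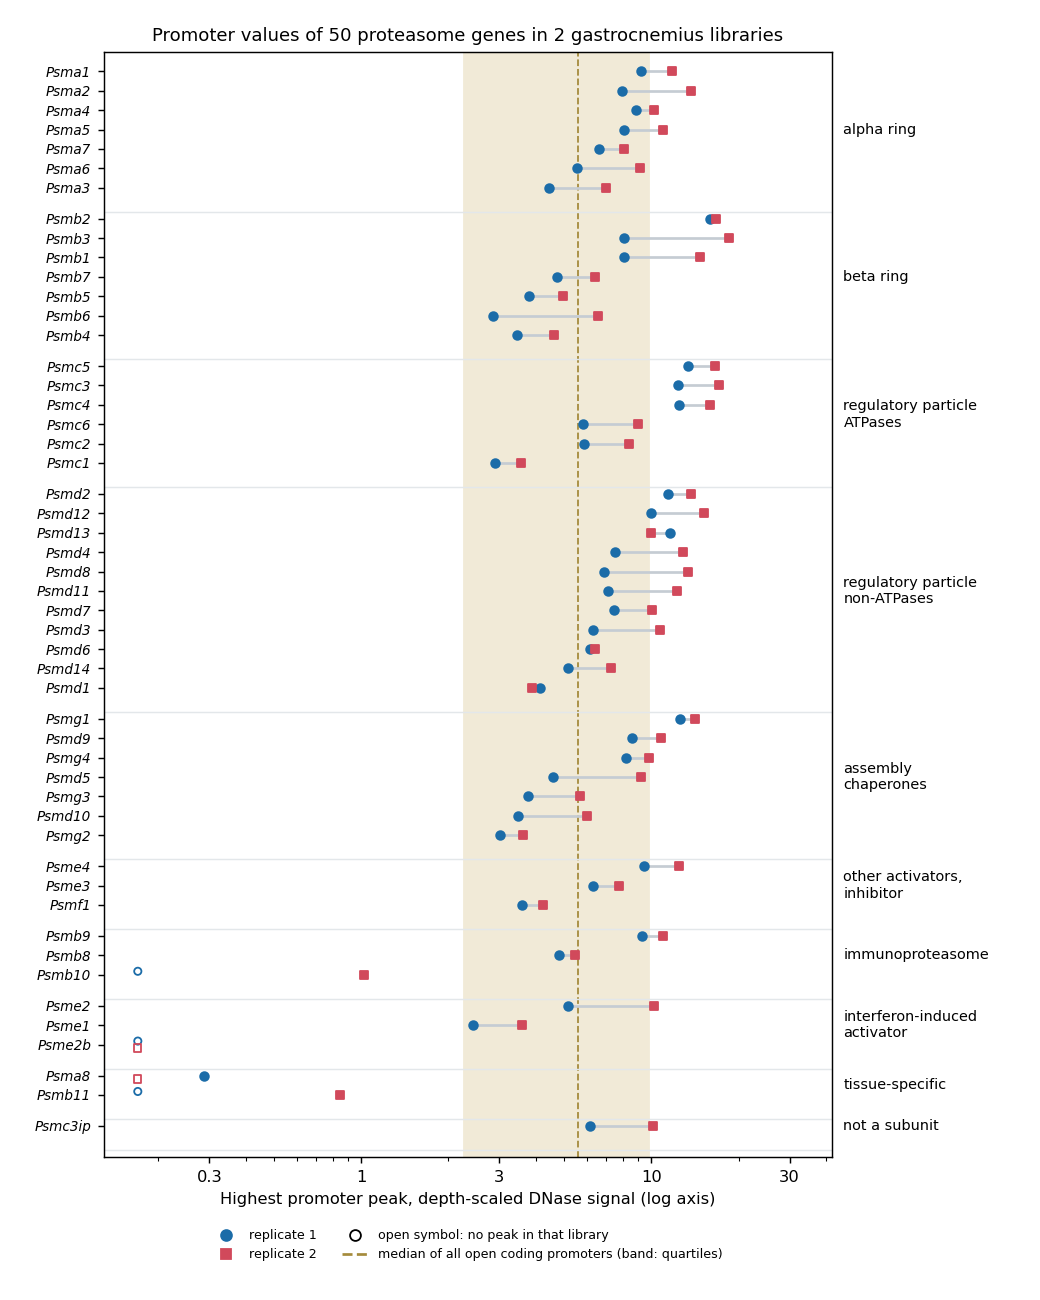
Value of the highest promoter peak (horizontal log axis, depth-scaled signal) of each of the 50 genes in replicate 1 (circles) and replicate 2 (squares), grouped by role and ordered by value, with open symbols where a library had no peak. The dashed line is the median of all open coding promoters (5.59) and the band spans its quartiles; the 4 genes with an open symbol all stand in the immune, interferon-induced and tissue-specific groups.

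In the alpha ring, which forms the gate of the core, the group median was 9.50. In the mean of both libraries all 7 promoters were above the median of open promoters. Psma1 had 9.24 and 11.8, Psma2 7.94 and 13.7, and Psma4 8.83 and 10.2. Psma3, the lowest of the ring, had 4.46 and 6.97, and in replicate 1 it was below that library's median of 4.64 over open promoters. The ring's means of both libraries ran from 5.72 to 10.8, the narrowest range of the groups with 6 or more genes.

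The beta ring spread more widely, from 4.04 to 16.3, with a group median of 5.57. Psmb2, a structural beta subunit, had the highest mean of both libraries of all members, at 15.9 and 16.7. In replicate 2 Psmc3 and Psmb3 were higher. Psmb3 had 8.06 and 18.6, and Psmb1 had 8.06 and 14.7. The Psmb1 values come from peaks that did not overlap, and that of replicate 2 was also assigned to the neighbouring gene Tbp. The catalytic subunits were lower. Psmb5 had 3.80 and 4.97, Psmb6 2.86 and 6.58, and Psmb7 4.73 and 6.40. Psmb4, which is structural, was as low as these at 3.46 and 4.61. In each library, Psmb1, Psmb2 and Psmb3 stood above the other 4 beta genes with no overlap.

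The 6 ATPases fell into a high and a low set. Psmc5 had 13.4 and 16.6, Psmc3 12.4 and 17.2, and Psmc4 12.4 and 15.9, all among the 4 highest members in the mean of both libraries. Psmc2 had 5.86 and 8.39 and Psmc6 5.81 and 8.99. Psmc1, although its protein sits in the same hexameric ring, had the second lowest mean of both libraries of all open members, at 2.89 and 3.54, and was the lowest in replicate 2. The group median was 10.8.

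Among the 11 non-ATPases 10 lay above the median of open promoters in the mean of both libraries, and their group median was 9.71. Psmd2, a large scaffold subunit, had the highest mean of both libraries with 11.4 and 13.8, although Psmd13 was higher in replicate 1 at 11.6 and Psmd12 in replicate 2 at 15.2. Psmd14, the deubiquitinase of the particle, had 5.16 and 7.29, and Psmd4, a ubiquitin receptor, had 7.52 and 12.9. Psmd1, the other large scaffold subunit, was the exception at 4.15 and 3.87. The scaffold genes Psmd1 and Psmd2 thus did not overlap in value across the libraries.

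The assembly chaperones had a median of 6.91. Psmg1 had 12.5 and 14.2, whereas Psmg2, with which its protein forms a dimer, had 3.01 and 3.63. The midpoint of the highest Psmg2 peak lay at -308.5 and -288.5 bp from the nearest start, where a minus sign means upstream. Cep76, whose start lay 263 bp away on the opposite strand, had the same values. Which of these 2 genes the peak belongs to was not tested. Psmg3 and Psmg4, which also act as a pair, had 3.75 and 5.70 and 8.18 and 9.85. Of the chaperones of the ATPase ring, Psmd5 had 4.57 and 9.24, Psmd9 8.61 and 10.8, and Psmd10, the only member on the X chromosome, 3.46 and 6.02. The values assigned to chaperone partners of 1 complex therefore differed more than the libraries did in both pairs. Psme4, an activator of the core, had 9.46 and 12.5, Psme3 6.32 and 7.72, and the inhibitor Psmf1 3.59 and 4.25.

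The order of the members was similar in both libraries, with Spearman's rho of 0.88 over the 46 open members as a description and 0.955 over all 14419. The 6 highest members by geometric mean were Psmb2, Psmc5, Psmc3, Psmc4, Psmg1 and Psmd2, and their lowest library value was 11.4. The 6 lowest were Psme1, Psmc1, Psmg2, Psmf1, Psmb4 and Psmd1, and their highest library value was 4.61. Both sets were picked by these same values, so their separation in each library largely follows from the choice. Neighbours in the order were often not separated: Psmc5, Psmc3 and Psmc4 differed from each other by less than their libraries did, as did Psmc1 and Psmg2.

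Replicate 2 gave higher values for 44 of 46 members, as it did for 82.0% of all open promoters. The median log2 ratio of replicate 2 over replicate 1 was 0.44 for the members, with an SD of 0.32 over genes, and 0.44 for all open promoters, with an SD of 0.46. The largest ratios were those of Psmb6 at 2.30-fold, Psmb3 at 2.30-fold and Psmd5 at 2.02-fold. The lowest were those of Psmd13 at 0.859-fold, with 11.6 and 9.99, of Psmd1 at 0.934-fold, and of Psmd6 at 1.05-fold. A member's values rested on at least 448 tags in replicate 1 and 604 in replicate 2. The 95% Poisson intervals of the 2 libraries did not overlap for 42 of the 46, or 91.3%, against 73.1% of all promoters open in both, where the same shift toward replicate 2 was seen. Tags may include PCR copies, and the intervals take 1 step of the values as 1 tag and cover counting error only.

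**Figure D2:**
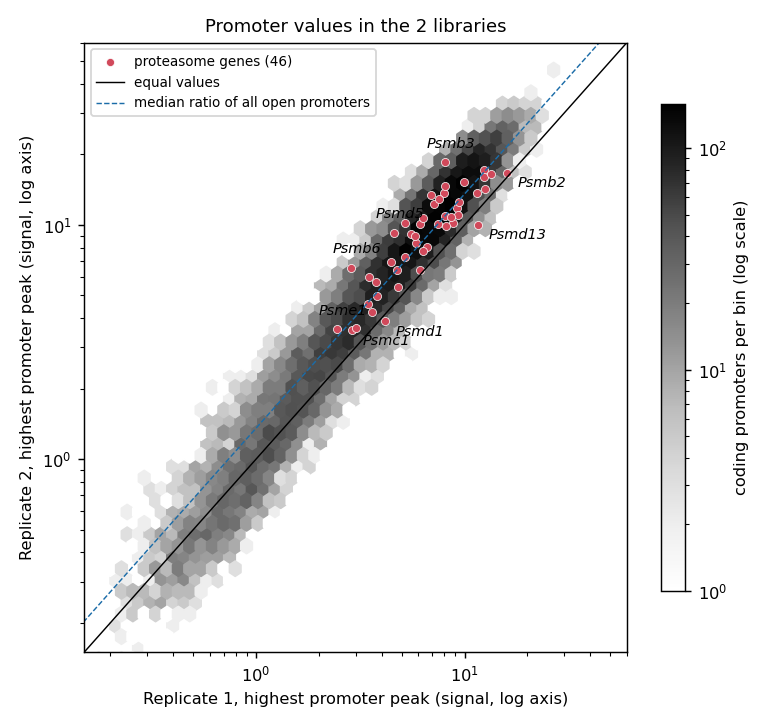
Value of the highest promoter peak in replicate 1 (horizontal, log axis) against replicate 2 (vertical, log axis) for all 14419 coding promoters open in both (grey, darker bins hold more promoters) and for the 46 open proteasome genes (red). Of the red points 44 lie above the line of equal values, and Psmb3, Psmb6 and Psmd5 are the farthest from it while Psmd13 and Psmd1 lie below.

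The immunoproteasome and its activator were partly accessible in this muscle. Psmb9 had 9.30 and 11.0 and exceeded its constitutive counterpart Psmb6, at 2.86 and 6.58, in both libraries. Its peak, however, had its midpoint at -211.5 bp from the nearest Psmb9 start, in the space shared with Tap1, the peptide transporter gene on the opposite strand, whose value was the same peak. Which of the 2 genes the peak belongs to was not tested. Psmb8 had 4.82 and 5.45, beside 3.80 and 4.97 for its counterpart Psmb5. Psmb8 was the higher in each library, although the ranges overlap between the genes.

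Psmb10, the third immunoproteasome subunit, had no promoter peak in replicate 1 and one of 1.02 in replicate 2, with its midpoint 333.5 bp downstream of the start. Its counterpart Psmb7 had 4.73 and 6.40. A higher site was found inside the gene in both libraries, at chr8:105936961-105937260, with 3.21 and 6.77. Its midpoint lay 1333.5 bp after the coding start, and 3 annotated starts of Psmb10 transcripts that GENCODE does not class as coding lay inside it. With a window of 1000 bp, which does not reach this higher site, Psmb10 counted as open in both libraries. That window reaches another shared peak inside the gene, at chr8:105937484-105937780, with 1.21 and 0.704. Of the 25 peaks shared by the libraries within member genes outside their promoter windows, those at Psmb10 were the only ones in a gene whose own promoter was not open in both.

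The activator genes Psme1 and Psme2 were open in both libraries. Psme2 had 5.18 and 10.2 and Psme1, the lowest of all open members in the mean of both libraries, had 2.44 and 3.58. Psme2b, a copy of Psme2, had no promoter peak in either library. Reads that fit both copies may have been dropped or split by the authors' alignment, which was not tested.

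The tissue-specific subunits were closed or weak. Psma8, the alpha subunit of the testis proteasome, had a peak of 0.288 in replicate 1, resting on 53 tags, and none in replicate 2, against 6.61 and 8.06 for its counterpart Psma7. Psmb11, the beta subunit of the thymus cortex, had no peak in replicate 1 and one of 0.845 in replicate 2, centred 402 bp into the gene, against 3.80 and 4.97 for Psmb5. Neither was called in the stricter set. Of the markers of the cells that use these subunits, the germ cell list was open in both libraries in 3 of 6 genes, of which Dazl had 5.68 and 9.003 and the others at most 0.323. The thymic epithelium list was open in 4 of 6, where 66.0% of all coding genes were. Ccl25 had 10.5 and 13.1, Ctsl 6.23 and 11.6, Aire 1.72 and 1.39 and Prss16 1.02 and 0.763, while Foxn1 and Krt5 had no peak in either library. Psmc3ip, the meiotic factor, was open at 6.14 and 10.1.

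The highest peaks of most proteasome promoters lay close to a start. The midpoint of the highest peak lay within 100 bp of a start in both libraries for 39 of 46 members, or 84.8%, compared with 63.0% of all open promoters, 76.9% of open mitochondrial and 75.9% of open cytosolic ribosomal protein genes. Its median distance was 25.5 and 29.5 bp, against 57.5 bp in each library over all open promoters, 30.5 and 31.0 bp for the mitochondrial and 46.5 bp in each library for the cytosolic ribosomal protein genes. Peak widths had medians of 180 and 200 bp, against 200 bp in both. Bases listed by the authors at a false discovery rate under 0.05 numbered 760 and 774 at the median in the 1001 bp around the principal start, against 752 and 753 over all.

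Footprints found in both libraries were present in the promoter windows of 46 of 50 members, against 62.0% of all coding genes. The 46 were the open members and the 4 others had none, so this count restates which promoters were open. Over all coding genes 66.0% were open in both libraries. Shared footprints were counted as those of replicate 1 that overlap 1 or more of replicate 2, for the members and for all promoters. A single footprint of replicate 2 can thus be counted several times, as at Psmg1, which had 6 footprints in replicate 2. The median was 5 shared footprints, as it was over all open promoters. Psmb1 had 9, as did Psmd3, a regulatory particle scaffold subunit, and Psmg1 had 8. The windows differ in size, however, with 2043 bp for Psmb1, 2002 bp for Psmd3 and 1071 bp for Psmg1, and within 500 bp of the principal start they had 4, 9 and 8. Psmb6 had only 1. Of 235 shared footprints within 500 bp of the principal start, 152 lay within 100 bp of it, or 64.7%, against 48.0% over all open promoters. In the 100 bp just before the start members held 1.83 footprints per gene and all open promoters 1.22, and in the 100 bp just after it 1.48 and 0.896.

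**Figure D3:**
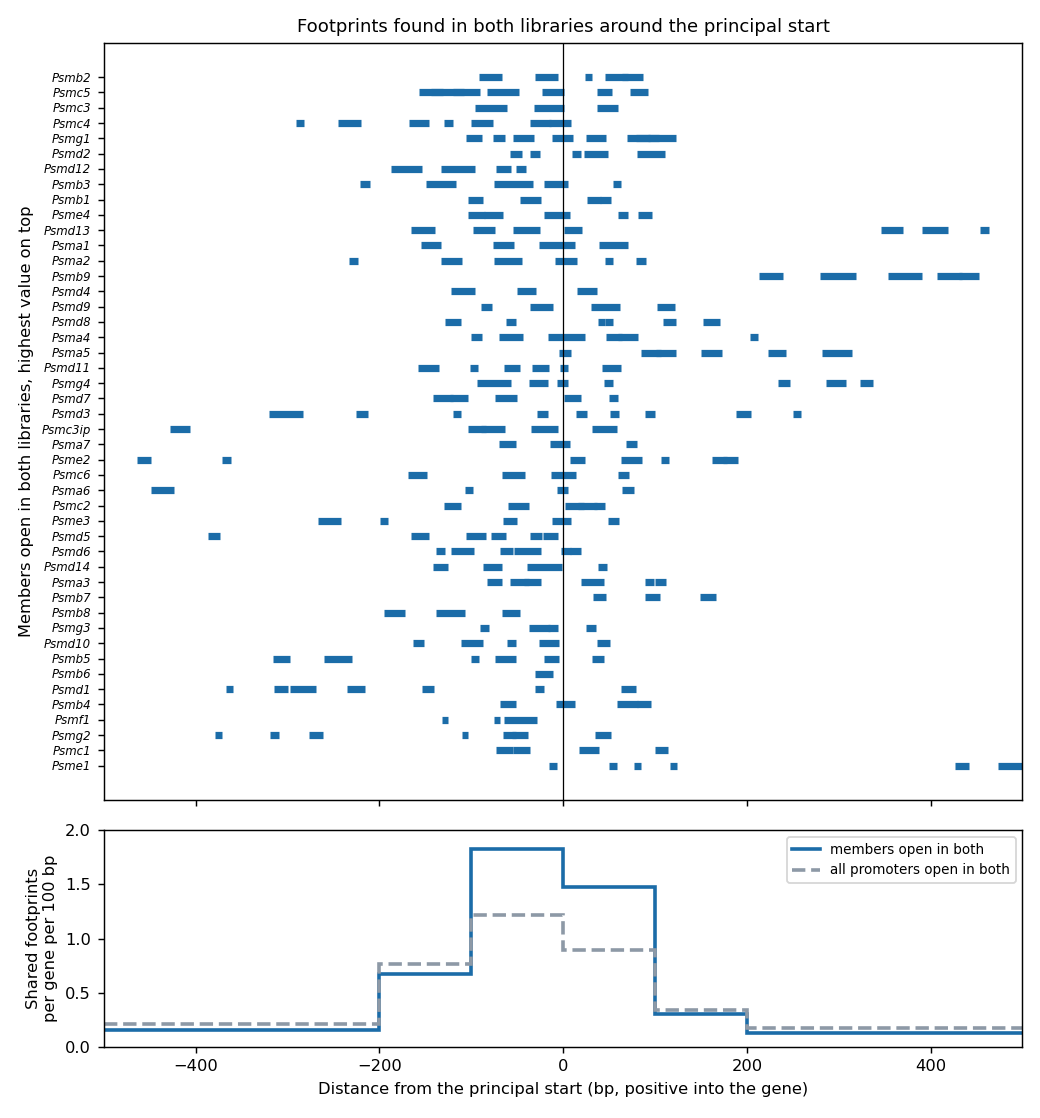
In the upper panel each bar is a footprint of replicate 1 that overlaps 1 or more of replicate 2. Bars stand at their distance from the principal start (horizontal, bp), in the 46 open members from the highest value down. The lower panel gives these footprints per gene per 100 bp for the members (solid) and for all promoters open in both (dashed). The bars crowd within 100 bp of the start, where members reach 1.83 before it and 1.48 after it and all promoters 1.22 and 0.896.

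The members are spread over 16 chromosomes, yet several share their promoter with a neighbour. For 11 of 50, or 22.0%, a protein-coding start lay on the opposite strand within 1 kb, against 11.4% of all coding genes, 42.3% of mitochondrial and 18.6% of cytosolic ribosomal protein genes. The closest pairs were Psmc2 with Dnajc2 at 32 bp, Psmb9 with Tap1 at 38 bp, Psma2 with Mrpl32 and Psmc5 with Ftsj3 at 75 bp each, and Psma7 with Ss18l1 at 76 bp. In these pairs both genes were assigned the same peak. The others were Psmd13 with Sirt3, Psma4 with AY074887, Psmb1 with Tbp, Psmd10 with Atg4a, Psmg2 with Cep76, and Psme2 with Rnf31, whose starts lay 595 bp apart. Of these, Psmd13, Psma4, Psmd10 and Psmg2 also had the same values as their neighbours in both libraries, and Psme2 in replicate 2 only. Which gene a shared peak belongs to was not tested. Psmb1 was assigned a different peak in each library. In replicate 1 its highest peak lay at its principal start. In replicate 2 the highest peak was at chr17:15499761-15499960, with its midpoint 109.5 bp upstream of another coding start of Psmb1. That site is also beside the start of Tbp, the TATA-binding protein gene, and which gene it belongs to was not tested. Psmg3 has the start of Gm26938 436 bp away on its own strand, and these genes had the same values in both libraries. The 11 members with another coding start within 500 bp on either strand had a median of 9.53 and the 35 other open members one of 8.13.

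The CpG ratio, which is the observed over the expected number of CpG in the 1001 bp around the principal start, had a median of 0.722 over the members and 0.570 over all coding genes. Over open promoters alone the medians were 0.753 and 0.716. Of the members not open in both libraries, Psme2b had 0.24, Psmb10 0.26, Psmb11 0.39 and Psma8 0.56. Psme1 at 0.40, Psmd10 at 0.42 and Psme2 at 0.43 were open with similarly low ratios. Over all open promoters the ratio and the value went together, with Spearman's rho of 0.45 over 14419 genes, whereas over the 46 open members rho was -0.12. These correlations are across genes that share the libraries and their base composition, and genes are not independent replicates.

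Motifs were searched on both strands from 250 bp before to 50 bp after the principal start in the 42 members that RefSeq's promoter table holds, of which 39 were open in both libraries. Psma8, Psmb1, Psmb2, Psmb7, Psmc3, Psmd3, Psmd7 and Psmg2 are not in the table. A match counted as footprinted when a footprint of each library touched it. At least 1 of the 16 motifs matched in 34 members, or 81.0%, against 80.8% of all genes in the table and 85.0% of the open ones. In 24 members, or 57.1%, a match was footprinted, against 32.4% of all and 47.8% of the open ones. Of the 128 shared footprints inside these windows 33, or 25.8%, touched any searched motif, so most protected stretches carried none of these letters.

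The antioxidant response element core occurred in 5 of 42 members, or 11.9%, against 13.4% of all 16531 coding genes in the table and 14.5% of those open in both. It was footprinted in 3 members, or 7.14%, against 3.06% of all and 4.51% of the open ones. These were Psmb5, where it began 20 bp upstream of the principal start, Psmd9, at 31 bp, and Psmb6, at 38 bp, the sequences printed above. The principal start of Psmb6, at chr11:70525386, lies beyond the printed stretch. In Psmd9 the footprints covered the match of 9 bases in both libraries, in Psmb5 they covered 9 and 8 bases, and in Psmb6 the only shared footprint of the promoter touched 2 and 3 bases. The count falls to 1, Psmd9, when the footprint must cover the whole match in both libraries. With 250 bp searched on either side of the start the core occurred in 14 members, and 3 remained footprinted. In Psmc6 and Psmd12 the core lay 191 and 203 bp upstream and had no footprint. The full element TGACTCAGC, which contains the AP-1 letters TGANTCA, occurred in 0 of 42 members and 0.363% of all genes, and AP-1 in 1 member, Psmd9, and 6.78% of all. The absence of these letters says nothing of the factors.

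The ETS letters CCGGAAG were the most frequent motif, in 15 of 42 members, or 35.7%, against 11.8% of all genes and 16.1% of open ones. They were footprinted in 10 members, or 23.8%, against 4.9% of all genes and 7.22% of open ones. The 10 were Psmc1, Psmc6, Psmd2, Psmd4, Psmd6, Psmd11, Psme3, Psme4, Psmg1 and Psmc3ip, which is not a subunit. A touch was enough here too, for the members and for all genes. In Psmd2, Psmd4, Psmd6, Psme3 and Psmg1 the footprints covered only part of the match in both libraries. Of the 14 ring genes 11 were searched, without Psmb1, Psmb2 and Psmb7, and of these the letters occurred in Psma6 alone, with a footprint in replicate 1 only. The SP/KLF letters GGGGCGG occurred in 10 members, or 23.8%, against 31.1% of all and 43.1% of open genes, and all 10 had a footprint over a match, against 64.5% of the open genes that hold one. In Psmc6 and Psme4 an ETS and an SP/KLF match overlapped and lay under 1 footprint.

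Other motifs were rarer. The NF-Y letters, CCAAT with C or G and then A or G after it, occurred in 7 members, or 16.7%, against 19.9% of all genes, and were footprinted in 5, or 11.9% against 6.21%. YY1, AAGATGGC, occurred in 5, or 11.9%, against 3.18%, and was footprinted in Psmb5, Psmc5 and Psmd11, or 7.14% against 1.20%. NRF1, GCATGCGC, whose letters can match both strands at overlapping positions, was found in Psma2, Psmc5 and Psmg1, or 7.14% against 3.82%, and was footprinted in Psma2 and Psmg1, or 4.76% against 2.82%. The cyclic AMP response element occurred only in Psmb8 among the members and in 2.47% of all genes, under footprints of 26 and 38 bp. The E-box CACGTG occurred in 5 members, or 11.9%, against 7.95%, with a footprint in Psma4 alone, or 2.38% against 2.39%. Among the genes open in both libraries, NF-Y matched in 22.1% and was footprinted in 9.14%. For YY1 these shares of open genes were 4.10% and 1.76%, for NRF1 5.03% and 4.15%, and for the E-box 9.81% and 3.52%. The cyclic AMP response element matched in 3.27% of open genes.

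The muscle E-box CAGCTG occurred in 1 member, Psmd4, or 2.38%, against 15.4% of all and 15.3% of open genes, and had no footprint. The MEF2 letters TAAAAATA occurred in 0 members and 1.80% of all genes. The interferon response letters AAANNGAAA occurred in Psma4, Psmb3, Psmd4, Psmd9, Psmd11 and Psmg4, or 14.3% against 9.89%, and were footprinted in Psmb3, or 2.38% against 0.502%. Among open genes these shares were 7.61% and 0.739%. The interferon response letters were not found in the windows of Psmb8, Psmb9, Psmb10, Psme1 and Psme2. For Psmb9 the searched window misses the open site, since its shared footprints lay 226.5 to 442 bp after the principal start, and the sites inside Psmb10 were not searched either. The GAS letters TTCCNGGAA occurred in 0 members and 1.22% of all genes. The TATA box, searched as TATAAA, occurred in 3 members, or 7.14%, against 12.4% of all and 7.15% of open genes. The ZNF143 letters ACTACAA occurred in 2, or 4.76%, against 3.96% of all and 4.15% of open genes. No match of these was footprinted in both libraries. A match is a description of letters and not evidence of a bound factor.

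**Figure D4:**
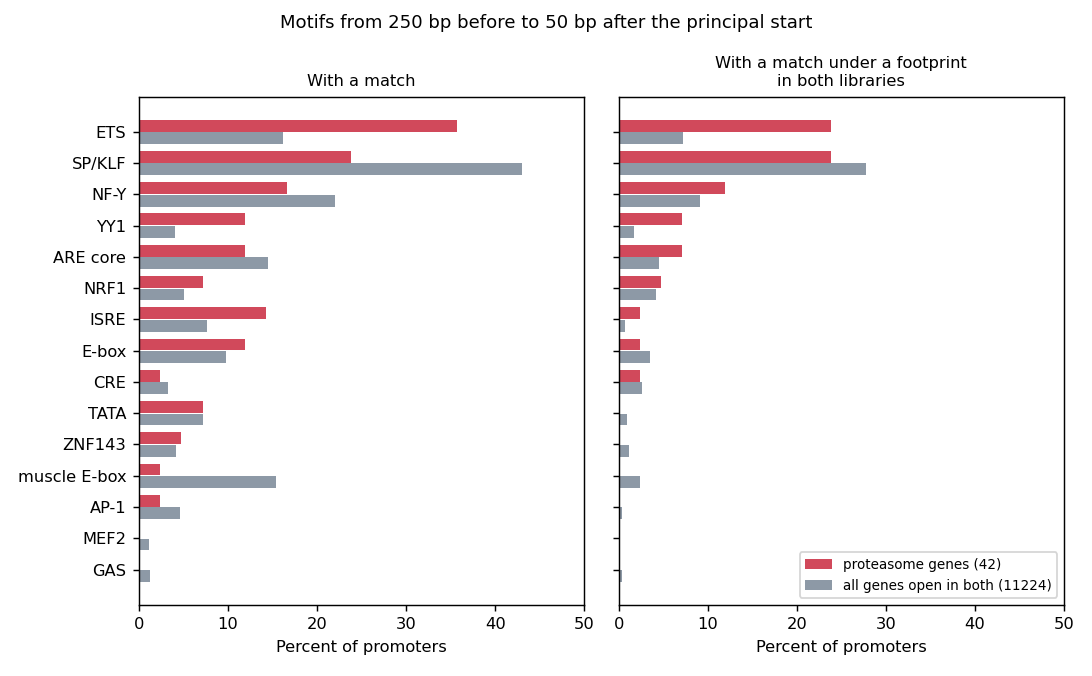
Percent of promoters with a match (left) and with a match under a footprint in both libraries (right) for 15 of the motifs, in 42 proteasome genes (red) and in 11224 genes open in both libraries (grey). ETS has the longest red bar on the left, 35.7% beside 16.1% in grey, and on the right it ties with SP/KLF at 23.8%, where the grey bars reach 7.22% for ETS and 27.8% for SP/KLF.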

How the data were processed

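Peaks, footprints and positions under a false discovery rate were deposited by the authors for each library separately, in mm10. Peak values are a deposited signal that was taken as scaled to depth. This was inferred from the values, of which 100% were whole multiples, within 0.05 of a step, of 0.00544 in replicate 1 and 0.00587 in replicate 2. The p-value type of number deposited by the authors, an FDR, is listed under 0.05 at 35695993 and 43782204 positions, and footprints carry 0.01 on every line, and were used as positions. The aligner and callers remain not given in the sources used here. These mice carry CAST alleles, and mapping of these to the reference was not analysed here.

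Starts came from coding transcripts of GENCODE M21, the principal one by APPRIS tag, support level and position. Footprints and peaks were shared at an overlap of 1 bp, and shared footprints were counted by those of replicate 1. Named genes were those not open in both libraries, the 6 highest and 6 lowest, the 3 largest and 3 smallest ratios between libraries, the 3 with most footprints, the immune and tissue-specific genes with their counterparts, and those with a footprinted response element. Other genes were named after their values were seen. Members and lists were chosen with earlier results of these data known. With 1 group no test was made. Alternatives were the stricter peaks, other windows and starts, other peak choices, each library alone, and other motif and overlap rules. Python 3.11.15, numpy 2.4.6, pandas 2.3.3, scipy 1.17.1, pysam 0.24.0 and matplotlib 3.10.9 were used, and the code was tested on simulated data.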

Additional observations from a re-analysis of the deposited data

How the results depend on the processing

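Of 59 alternative values of 10 results, 44 were labelled the same as the main value, 15 moved and 0 reversed. Only the log2 ratio between libraries could reverse, since the other results are counts, shares or medians without a sign. The limits for a move differed between results. With 1 library left out, members' medians of 9.92 and 6.32 beside 8.32 were labelled the same, whereas a share of 65.5% beside 66.0% was labelled moved. Open members numbered 46 to 48 under every alternative run. The share of all coding promoters open in both libraries was 67.8% to 68.0% with 1 library left out, 61.8% with the stricter peaks, 64.4% with 250 bp windows, 67.5% with 1000 bp windows, 62.6% with 1 principal start and 65.5% with the peak midpoint inside. Summing peaks raised the median of all open promoters to 6.96, and the members' median to 10.02. The members' median of listed bases was 773.5 in the main run, over the windows of all starts. It was 501.0 with 250 bp windows, 900.0 with 1000 bp windows and 754.0 with 1 start, which follows from the window's size. The 760 and 774 given above are for open members with 1 start. The response element core occurred in 14 members with 250 bp on either side and the full letters in 0; footprinted, they numbered 0 with the full letters and 1 when the footprint had to cover the whole match. No paired analysis was possible because there is 1 group and no comparison between groups. The calls that differed between the libraries rested on 53 tags for Psma8, 174 for Psmb10 and 144 for Psmb11, beside 134 and 122 for the median peak.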

Other observations

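The partners of the proteasome were open as well. All 22 matched genes of a list of ubiquitin-proteasome partners were open in both libraries, where 66.0% of all coding genes were, and 18 lay above the median of open promoters. Rad23b, a shuttle that carries ubiquitinated proteins to the proteasome, had 19.9 and 29.3. Zfand5, a proteasome activator raised in muscle atrophy, had 20.6 and 24.8, and Vcp, the unfoldase that extracts ubiquitinated proteins, had 12.0 and 20.4. Adrm1, a ubiquitin receptor of the regulatory particle, had 11.4 and 16.9, whereas Pomp, the maturation factor of the core, had 5.41 and 7.14 and Sem1, a small subunit of the regulatory particle, 5.06 and 6.32. The list's median was 9.52, beside 5.59 over all open promoters.

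Of 9 regulators of proteasome genes 9 were open in both libraries, where 66.0% of all coding genes were. Nfe2l2 had 9.41 and 19.7, Mafk, a small MAF partner, 14.2 and 17.1, and Nfe2l3 1.25 and 0.722. Nfe2l1 had 4.80 and 17.5, a wider gap between the libraries than any open member showed. Of 11 genes of antigen processing and interferon response 10 were open, with a median of 7.11 beside 5.59 over all open promoters. H2-D1 had 11.8 and 11.2, and Ciita was not open.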
